A study of Homo sapiens with 24 samples.

Results

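The N-myc downstream regulated gene (NDRG) family has 4 members, NDRG1, NDRG2, NDRG3 and NDRG4. The members were chosen by name as a gene family, with earlier results of these data known. They are 4 of the 26475 gene symbols in the table of the series, and all 4 passed edgeR's filter on low counts, which kept 13900 genes for testing. Each is described in every clone and dox state, with a comparison of the states for each.

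RNA was sequenced from 3 clones of HK2, an immortalised human proximal tubule cell line, with 4 replicate libraries for each clone and dox state and 24 libraries in all. All 3 clones carry a VHL transgene that depends on doxycycline (dox), so VHL is supplied with dox (dox on) and withdrawn without it (dox off). By the study's account, WT8 retains its own VHL gene, whereas MUT10 and MUT35 lost theirs by knockout, and the last 2 are called the mutant clones here. The comparisons ask how dox withdrawal changes transcripts in cells with and without endogenous VHL. Each genotype rests on single clones, 1 with and 2 without endogenous VHL, so a property of a clone and an effect of its genotype cannot be told apart. Some descriptions differ between the sources: the sample labels give lung as the tissue beside the HK2 line and call the dox on libraries of the mutant clones wild type, the series description places WT8 without dox among the knockouts, and a sentence in the methods counts WT8 among the VHL-mutated derivatives. Nothing in the sources says whether the replicates were separate cultures, so p-values measure the spread between these libraries, which may be technical.

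NDRG proteins share an alpha/beta-hydrolase fold but are not known to act as hydrolases. NDRG1 is a stress-responsive protein whose gene is a well-known target of the hypoxia-inducible factors (HIF), the transcription factors whose alpha subunits VHL marks for degradation, and it is phosphorylated by the kinase SGK1 and then by GSK3. NDRG2 has been studied as a candidate tumour suppressor and is abundant in astrocytes. NDRG3 is controlled by oxygen mainly as a protein, since it is a substrate of the prolyl hydroxylase EGLN1 and of VHL and binds lactate in hypoxia. NDRG4 is best known in heart and brain.

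RefSeq promoter windows, of 250 bases before to 50 after a start site, were matched for 2 of the 4 members, NDRG2 and NDRG4. They were searched for the core of the HIF response element, written ACGTG or GCGTG and read on both strands, since VHL acts on HIF. The palindrome CACGTG would hold ACGTG on each strand. Of 35116 windows of this length, 48.4% held either motif and 21.4% held ACGTG. Motifs were present in 3 of 5 NDRG2 windows and in 1 of 4 NDRG4 windows, and ACGTG was in none of the 9. The NDRG2 windows chr14:21025012-21025311 and chr14:21025056-21025355 overlap and hold the same match. The only NDRG4 window with matches, chr16:58463465-58463764 on the plus strand of GRCh38.p14, is shown. Of the 3 NDRG2 windows with a match, 1 is shown, chr14:21025012-21025311 on the minus strand. Capitals mark the matches, which are letters in a window and not bound sites.
NDRG4: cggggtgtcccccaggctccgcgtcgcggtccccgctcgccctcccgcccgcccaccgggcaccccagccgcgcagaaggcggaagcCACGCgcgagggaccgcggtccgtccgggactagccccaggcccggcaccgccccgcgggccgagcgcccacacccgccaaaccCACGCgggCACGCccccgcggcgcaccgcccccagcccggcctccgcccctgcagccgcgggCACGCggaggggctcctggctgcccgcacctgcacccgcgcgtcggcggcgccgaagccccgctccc
NDRG2: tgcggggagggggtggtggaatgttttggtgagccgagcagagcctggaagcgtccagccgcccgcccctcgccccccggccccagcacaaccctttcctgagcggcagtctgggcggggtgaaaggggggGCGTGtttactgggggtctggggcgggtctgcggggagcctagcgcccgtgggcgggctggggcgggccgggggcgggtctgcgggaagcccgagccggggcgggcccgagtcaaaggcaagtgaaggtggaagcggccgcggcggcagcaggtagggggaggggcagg
The NDRG4 window has 4 matches, all GCGTG read on the opposite strand, and is 83.0% GC, and the NDRG2 window is 74.3% GC.

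The libraries held between 5206663 and 18196003 expected counts. VHL ranged from 192 to 400 CPM (counts scaled to library size) in the 12 dox on libraries and from 17.8 to 34.1 CPM in the 12 dox off libraries, so the labels of dox state held in every library. The libraries also differed in a trend of log2 CPM with transcript GC. This slope, over 9350 genes, per 10 percentage points of GC and relative to the mean library, ran from -0.37 to -0.030 in dox on libraries and from -0.010 to 0.43 in dox off libraries. MUT10 dox off replicate 4 and MUT10 dox on replicate 2 had the slopes closest to 0 in their dox states, and whether a preparation step separated the dox states cannot be told apart from dox itself. The ribosomal RNA gene RNA18S5 also moved with dox state, at 0.153% to 0.274% of the counts in dox on libraries and 0.258% to 0.397% in dox off libraries, and its part in the withdrawal effects of the NDRG genes was not tested. Of the 6 proximal tubule markers examined, LRP2, AQP1, ANPEP and SLC34A1 stayed under 1 CPM in every library, CUBN reached at most 1.70 CPM, and GGT1 lay between 17.7 and 37.8 CPM with dox and between 34.6 and 74.7 CPM after withdrawal. Of the 4 lung markers, SFTPC, NKX2-1 and SCGB1A1 stayed under 1 CPM in every library, and SFTPB reached at most 1.19 CPM. The summed level of the epithelial markers KRT8, KRT18, KRT19 and EPCAM was 438 to 878 CPM with dox and 436 to 861 CPM after withdrawal.

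In GENCODE v44 on hg38, NDRG1 (ENSG00000104419) spans chromosome 8 from 133237175 to 133302022 on the minus strand, and NDRG2 (ENSG00000165795) spans chromosome 14 from 21016763 to 21070872 on the minus strand. NDRG3 (ENSG00000101079) lies on the minus strand of chromosome 20 from 36651766 to 36746090, and NDRG4 (ENSG00000103034) on the plus strand of chromosome 16 from 58462846 to 58513628. The reference (MANE Select) transcripts are of nearly equal length, at 3025, 2978, 2971 and 3208 bases from NDRG1 to NDRG4. Their GC content is 54.9%, 56.3%, 46.7% and 55.8%. The median over all transcripts of each gene, used where the GC trend is removed unless stated otherwise, is 57.1%, 54.5%, 46.4% and 61.2%. NDRG3 has the lowest GC content of the family by both measures, and NDRG4 has the highest by the median.

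Compared per length of the reference transcript, the family was dominated by NDRG3 with dox and by NDRG1 after withdrawal in the mutant clones. With dox, NDRG3 stood first in all 3 clones, NDRG1 second, then NDRG4, with NDRG2 last. In WT8, NDRG3 was at 36.7 ± 1.94 CPM per kb (SD, n = 4) with dox and at 42.1 ± 1.41 after withdrawal, and NDRG1 was at 12.2 ± 0.725 and 15.2 ± 0.656. The order was therefore the same in both dox states of WT8. In MUT10, NDRG1 moved from 21.3 ± 2.13 to 229 ± 25.9 CPM per kb while NDRG3 was at 30.1 ± 1.94 and 36.7 ± 2.08. In MUT35, NDRG1 moved from 21.2 ± 1.01 to 94.1 ± 4.81 CPM per kb while NDRG3 was at 40.3 ± 0.951 and 43.8 ± 0.923. NDRG1 passed NDRG3 in every MUT10 and MUT35 library after withdrawal and in none of the other libraries.

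NDRG1 made up 23.0% ± 1.38 (SD, n = 4) of the per-length level of the family in WT8 with dox and 24.4% ± 0.906 after withdrawal. In MUT10, its share was 39.2% ± 1.27 with dox and 84.6% ± 1.16 after withdrawal. In MUT35, it was 31.7% ± 1.29 with dox and 65.4% ± 0.846 after withdrawal. The family total went from 54.2 ± 4.36 to 270 ± 27.7 CPM per kb in MUT10 and from 66.9 ± 0.83 to 144 ± 5.86 in MUT35, against 53.0 ± 2.03 and 62.2 ± 1.44 in WT8. NDRG4 held between 1.66% and 6.24% of the level in the means of the 6 groups, and NDRG2 between 0.137% and 1.85%.

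**Figure D1:**
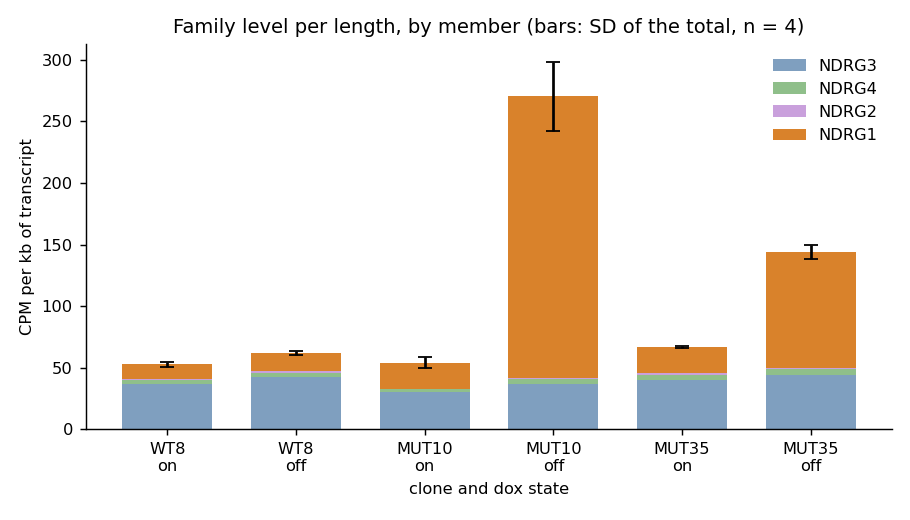
Mean CPM per kb of reference transcript (vertical axis, from 0) of the 4 NDRG genes, stacked, in each clone with dox (on) and after withdrawal (off), with the SD of the family total over 4 libraries as the error bar. NDRG1 fills 84.6% of the bar in MUT10 and 65.4% in MUT35 after withdrawal, and 24.4% in WT8.

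NDRG1 rose after dox withdrawal in both mutant clones, far more in MUT10 than in MUT35. In MUT10, its CPM in replicates 1 to 4 was 59.3, 73.5, 64.0 and 60.6 with dox and 763, 698, 725 and 582 after withdrawal. In MUT35, it was 63.1, 67.9, 60.7 and 65.2 with dox and 272, 295, 273 and 299 after withdrawal. The dox on libraries of the mutant clones lay in one range, whereas the dox off libraries formed separate ranges, each MUT10 library above each MUT35 library. The deposited counts behind these values ran from 495 to 8110. The means were 64.4 ± 6.44 and 692 ± 78.2 CPM (SD, n = 4) in MUT10 and 64.2 ± 3.06 and 285 ± 14.6 CPM in MUT35.

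In MUT10, 3 of the 4 members were called changed after withdrawal, all higher, where 66.1% of all genes tested were called. NDRG1 had a log2 fold change of 3.43 (SE, the standard error, 0.078, edgeR quasi-likelihood adjusted p = 7.08e-22), which is 10.7-fold and the 37th largest rise of 13900 genes. In MUT35, 2 of the 4 were called, both higher, against 63.2% of all genes. NDRG1 had a log2 fold change of 2.15 (SE 0.075, adjusted p = 2.44e-17 from the same test), which is 4.43-fold and the 60th largest rise. In the mean of the mutant clones, 3 of the 4 members were called higher, against 73.6% of all genes called, and NDRG1 was at 2.79 (SE 0.054). With the GC trend of each library removed, its rise was 3.02 in MUT10 and 1.77 in MUT35, and without the pair of MUT10 libraries that lie apart in that trend it was 3.54 in MUT10.

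The MUT10 rise exceeded the MUT35 rise in a direct test. Of the 4 members, 2 were called for a larger withdrawal effect in MUT10 than in MUT35, where 11.1% of all genes were called in either direction. For NDRG1 the difference was 1.28 on the log2 scale (95% CI 1.06 to 1.49, edgeR quasi-likelihood adjusted p = 1.6e-09), or 2.43-fold. It was 1.24 with the GC trend removed and 1.41 without the pair of MUT10 libraries. The levels after withdrawal carried this difference: NDRG1 was 1.28 higher on the log2 scale in MUT10 than in MUT35 after withdrawal (SE 0.071), and with dox the value was 0.0025 (95% CI -0.15 to 0.16), which did not pass.

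In WT8, NDRG1 was at 37.4, 39.7, 34.5 and 35.9 CPM with dox and at 48.7, 46.0, 44.3 and 44.6 CPM after withdrawal in replicates 1 to 4. The groups did not overlap, but the step was small beside those of the mutant clones. In WT8, 2 of the 4 members were called, both higher, where 59.3% of all genes were called. NDRG1 had a log2 fold change of 0.32 (SE 0.083, edgeR quasi-likelihood adjusted p = 0.0021), which did not hold with the GC trend removed: the value was then -0.044 (adjusted p = 0.58), or 0.038 (adjusted p = 0.617) with the GC content of the reference transcript.

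The withdrawal effect in the mutant clones was compared directly with that in WT8. NDRG1 was the single member called, with 23.5% of all genes called, and its interaction was 2.47 on the log2 scale (95% CI 2.27 to 2.67, edgeR quasi-likelihood adjusted p = 5.88e-16), the 52nd largest of 13900. The interaction was 2.44 with the GC trend removed, which moves the effects of the clones by similar amounts. After withdrawal, 3 of the 4 members differed between the mutant clones and WT8, 2 higher and 1 lower, against 55.8% of all genes, and NDRG1 was 9.68-fold higher in the mutant clones (log2 difference 3.27, SE 0.074). With dox, NDRG1 was the single member called, against 43.2% of all genes, and was already 1.75-fold higher in the mutant clones (log2 difference 0.80, SE 0.073, adjusted p = 1.13e-09 from the same test). The 8 mutant dox on libraries lay between 59.3 and 73.5 CPM, above the 8 WT8 libraries of both dox states, which lay between 34.5 and 48.7 CPM.

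**Figure D2:**
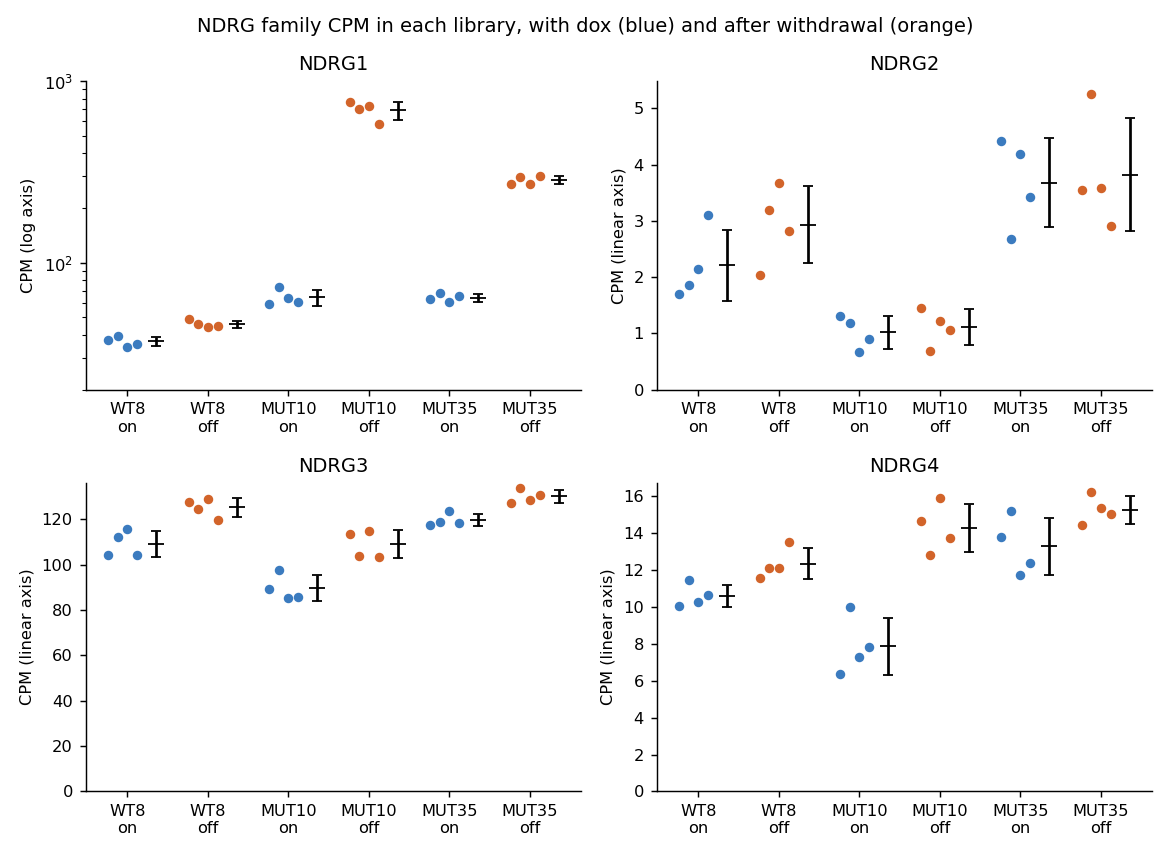
CPM of each NDRG gene in the 24 libraries (vertical axis, logarithmic for NDRG1 and linear from 0 for the others), by clone with dox (on, blue) and after withdrawal (off, orange). Points are libraries and black bars are the mean and SD of 4, and NDRG1 sits between 272 and 763 CPM in the mutant clones after withdrawal and between 34.5 and 73.5 CPM elsewhere, while NDRG2 is lowest in both states of MUT10.

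NDRG3, the most even member across the groups, rose slightly after withdrawal, with no difference passing the test between mutant clones and WT8. Its CPM in WT8 was 104, 112, 116 and 104 with dox and 128, 124, 129 and 120 after withdrawal. In MUT10, it was 89.3, 97.8, 85.3 and 85.8 with dox and 114, 104, 115 and 103 after withdrawal. The dox off libraries of each clone, MUT35 included, lay above its dox on libraries, although the group means of all 6 groups lay between 89.6 and 130 CPM. The log2 fold change of NDRG3 was 0.20 in WT8 (SE 0.054, adjusted p = 0.00266) and 0.28 in MUT10 (SE 0.054, adjusted p = 5.7e-05), both from edgeR's quasi-likelihood test. In MUT35, it was 0.12 (adjusted p = 0.0499 from the same test), a call at the threshold that was lost when any of 21 of the 24 libraries was left out. The interaction was 0.0032 (95% CI -0.13 to 0.14). This interval measures the spread between libraries of these clones and does not bound a difference between genotypes. As the member with the lowest GC content, NDRG3 rose more with the GC trend removed, by 0.34 in WT8, 0.39 in MUT10 and 0.26 in MUT35.

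NDRG3 was lowest in MUT10 in both dox states, with no overlap with the other clones. NDRG3 was lower in MUT10 than in MUT35 by a log2 difference of -0.42 with dox (SE 0.053, edgeR quasi-likelihood adjusted p = 3.49e-07) and of -0.26 after withdrawal (SE 0.053, adjusted p = 0.000274). With dox, 3 of the 4 members were lower in MUT10 than in MUT35 and none was higher, against 48.2% of all genes called. After withdrawal, 2 were lower and 1, NDRG1, was higher, against 46.6% of all genes. The deposited count of NDRG3 was whole in 1 of the 24 libraries, whereas those of the other members were whole in all 24, so some reads of NDRG3 were divided between features, and its values carry that uncertainty. No value here measures NDRG3 protein, the level at which EGLN1 and VHL act on it.

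NDRG4 was a low transcript, and its response to withdrawal differed between the mutant clones. In MUT10, its CPM was 6.35, 10.0, 7.26 and 7.82 with dox and 14.7, 12.8, 15.9 and 13.7 after withdrawal. In MUT35, it was 13.8, 15.2, 11.7 and 12.4 with dox and 14.4, 16.2, 15.4 and 15.1 after withdrawal. The MUT10 groups did not overlap and the MUT35 groups did. The counts behind these values ran from 53 to 222 over the 24 libraries. NDRG4 had a log2 fold change of 0.84 in MUT10 (SE 0.11, edgeR quasi-likelihood adjusted p = 4.17e-07), or 1.80-fold, and it stayed called with the GC trend removed, at 0.26 (adjusted p = 0.0334), or 0.49 with the GC content of the reference transcript. In MUT35, the value was 0.20 (adjusted p = 0.102), and without MUT35 dox on replicate 2 it was 0.28 (adjusted p = 0.0363). The MUT35 value changed sign with the GC trend removed, to -0.36 (adjusted p = 0.0018), or -0.12 (adjusted p = 0.27) with the GC content of the reference transcript.

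The difference in NDRG4 response between the mutant clones was 0.64 on the log2 scale (95% CI 0.33 to 0.96, edgeR quasi-likelihood adjusted p = 0.00604), and it was 0.61 with the GC trend removed and 0.78 without the pair of MUT10 libraries. The levels with dox carried it, in contrast to NDRG1. With dox, NDRG4 was lower in MUT10 than in MUT35 (log2 difference -0.75, SE 0.11, adjusted p = 4.21e-06), and after withdrawal the difference was -0.10 (95% CI -0.32 to 0.12) and did not pass the test. In WT8, the mean NDRG4 level was 10.6 ± 0.607 CPM (SD, n = 4) with dox, against 12.3 ± 0.843 after withdrawal, groups that did not overlap. Its log2 fold change of 0.22 did not pass (adjusted p = 0.105) and turned to -0.31 (adjusted p = 0.0163) with the GC trend removed. In the mean of the mutant clones, NDRG4 had a log2 fold change of 0.52 (SE 0.077), which was -0.052 (adjusted p = 0.528) with the GC trend removed and 0.19 (adjusted p = 0.014) with the GC content of the reference transcript. The interaction of NDRG4 was 0.31 (95% CI 0.023 to 0.59, adjusted p = 0.114), and without MUT10 dox on replicate 2 it was 0.34 (adjusted p = 0.0429). After withdrawal, NDRG4 was higher in the mutant clones than in WT8 by 0.26 (adjusted p = 0.0207), a call lost without WT8 dox off replicate 1 (0.23, adjusted p = 0.0655) or replicate 3 (0.24, adjusted p = 0.0571).

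NDRG2 was the lowest member in every group and did not pass the test for withdrawal in any clone. Its deposited counts were 9, 15, 18 and 31 in WT8 with dox and 21, 30, 67 and 33 after withdrawal. In MUT10, they were 11, 13, 7 and 12 with dox and 14, 8, 10 and 11 after withdrawal. In MUT35, they were 41, 39, 51 and 44 with dox and 33, 44, 33 and 27 after withdrawal. At these counts the test is imprecise, and the dox groups overlapped in each clone. The log2 fold changes were 0.39 (95% CI -0.13 to 0.90) in WT8, 0.11 (95% CI -0.58 to 0.80) in MUT10 and 0.065 (95% CI -0.39 to 0.52) in MUT35, and the sign turned in both mutant clones with the GC trend removed.

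What set the NDRG2 groups apart was the clone. NDRG2 was at 1.02 ± 0.289 CPM (SD, n = 4) in MUT10 with dox and at 1.11 ± 0.319 after withdrawal, against 3.68 ± 0.791 and 3.82 ± 1.00 in MUT35. The 8 MUT10 libraries all lay below the 8 MUT35 libraries and below the 8 WT8 libraries. NDRG2 was lower in MUT10 than in MUT35 by a log2 difference of -1.84 with dox (SE 0.27, edgeR quasi-likelihood adjusted p = 2.79e-06) and of -1.80 after withdrawal (SE 0.28, adjusted p = 5.77e-06). The WT8 means were 2.21 ± 0.628 CPM with dox and 2.93 ± 0.684 after withdrawal, between those of the mutant clones, although the WT8 and MUT35 libraries overlapped. The mean of the mutant clones was lower than WT8 after withdrawal by -0.55 (95% CI -0.99 to -0.11, adjusted p = 0.0304), a call lost in DESeq2 and without any of 4 libraries, among them WT8 dox off replicate 3, whose count of 67 is the highest (-0.40, adjusted p = 0.177). Exons of NDRG2 overlap by 236 bases those of TPPP2, on the opposite strand, which was listed at 0 in all 24 libraries.

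**Figure D3:**
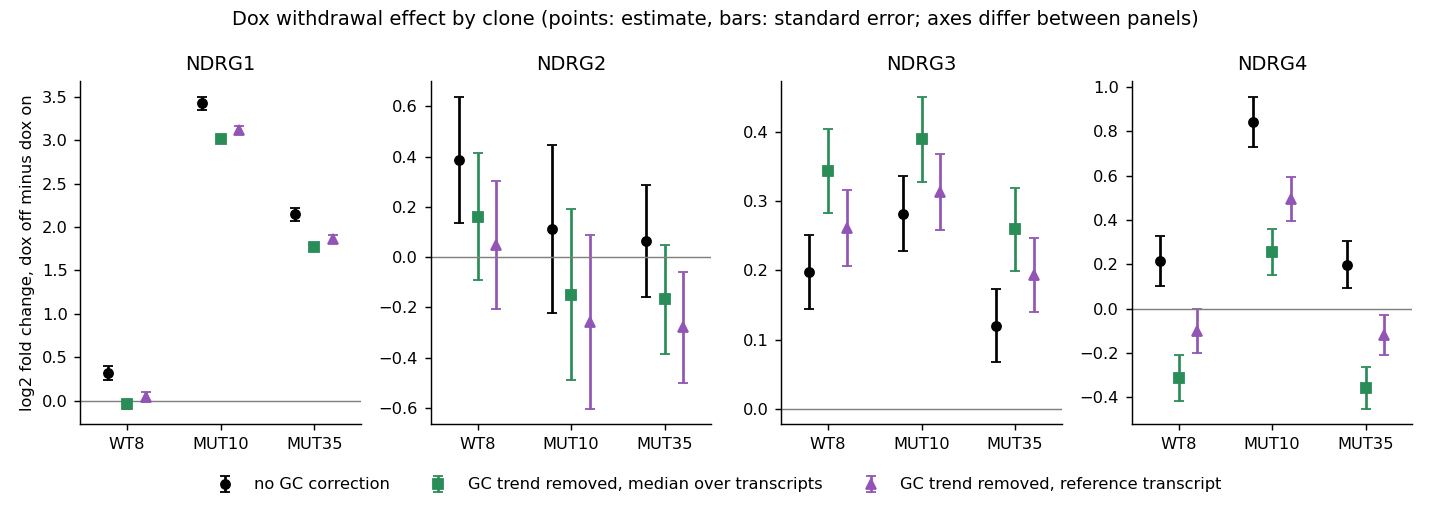
Log2 fold change of dox off against dox on (vertical axis, with a separate scale in each panel) for the 4 NDRG genes in WT8, MUT10 and MUT35, without a GC correction (black circles) and with the GC trend of each library removed, by the median GC content over transcripts (green squares) or that of the reference transcript (purple triangles). Bars are SEs, and NDRG1 stays above 1.7 in both mutant clones while its WT8 value falls to near 0 and NDRG4 in WT8 and MUT35 turns from 0.22 and 0.20 to below 0.

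Genes that act on members of the family or are tied to them were examined as 4 lists. Their counts stand beside the median of all genes and carry no test of the list. Of the 5 kinases SGK1, SGK2, SGK3, GSK3A and GSK3B, 2 were higher and none lower after withdrawal in each of WT8, MUT10 and MUT35, where 59.3%, 66.1% and 63.2% of all genes were called, and the list medians were 0.37, 0.070 and 0.29 where the median over all genes was 0.0066, 0.036 and 0.014. SGK1, which phosphorylates NDRG1, was among the higher ones in all 3 clones, by log2 fold changes of 0.37 in WT8, 0.26 in MUT10 and 0.46 in MUT35, and these were 0.57, 0.41 and 0.65 with the GC trend removed. Its interaction was -0.0077 (SE 0.067), so SGK1, unlike NDRG1, did not pass the test between the mutant clones and WT8. GSK3A (-0.32, adjusted p = 0.0416) and SGK2 (-0.40, adjusted p = 0.0412) had the called interactions of this list, in edgeR's quasi-likelihood test. The log2 fold change of GSK3A in MUT35 turned from 0.29 to -0.067 with the GC trend removed, so the counts by clone depend on it, while the interaction counts of the kinases were 0 higher and 2 lower either way, against 23.5% of all genes called, or 33.4% with the GC trend removed.

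Of the 10 transcription factors linked to the family, 9 were tested, and MYCN, whose product gave the family its name, was listed at 0 in all libraries. In the interaction, 4 were higher in the mutant clones and 1 lower (5 and 2 with the GC trend removed), against 23.5% of all genes called (33.4% with the GC trend removed), with a median of 0.24 against 0.0065 over all genes. The called members were EPAS1 (0.40, adjusted p = 0.000141), MYCL (1.63, adjusted p = 0.00022), AHR (0.55, adjusted p = 0.00062), MYC (0.24, adjusted p = 0.0157) and EGR1 (-0.88, adjusted p = 0.00449), all from edgeR's quasi-likelihood test. EPAS1 encodes HIF2A. Its log2 fold change was 0.44 in WT8, 1.53 in MUT10 and 0.15 in MUT35, so MUT10 alone exceeded WT8. The response of EPAS1, like that of NDRG1, was larger in MUT10 than in MUT35. The levels with dox carried most of this difference, in contrast to NDRG1. EPAS1 was lower in MUT10 than in MUT35 with dox (log2 difference -1.09, SE 0.060) and higher after withdrawal (0.29, SE 0.058). In MUT10, EPAS1 was at 128 ± 6.35 CPM with dox and 371 ± 30.5 CPM after withdrawal (SD, n = 4), and in MUT35 at 274 ± 14.3 and 303 ± 10.2 CPM, and the difference in its response was 1.39 on the log2 scale (SE 0.083, adjusted p = 5.33e-12). With the GC trend removed the MUT35 value of EPAS1 turned from 0.15 to -0.23, while the difference between the mutant clones was 1.35. After withdrawal the EPAS1 means of MUT10, MUT35 and WT8 (354 ± 10.6 CPM) lay much closer to one another than those of NDRG1, and the contribution of EPAS1 to the NDRG1 difference was not tested. HIF1A did not pass in the interaction (-0.16, adjusted p = 0.204), although with the GC trend removed its value of -0.18 did (adjusted p = 0.00281). Its log2 fold change was -0.41 in WT8, -0.38 in MUT10 and -0.76 in MUT35. The response of HIF1A differed between MUT10 and MUT35 by 0.38 (edgeR quasi-likelihood adjusted p = 0.0115). HIF1A was higher in MUT10 than in MUT35 by 0.32 after withdrawal (SE 0.071), and with dox the value was -0.062 (SE 0.071). The contribution of HIF1A to the NDRG1 difference was not tested either.

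Of the 11 genes around oxygen and lactate control of NDRG3, all were tested, and 5 had a higher and 1 a lower withdrawal effect in the mutant clones than in WT8 (5 and 3 with the GC trend removed), against 23.5% of all genes called (33.4% with the GC trend removed), with a median of -0.040 against 0.0065 over all genes. LDHA, the lactate dehydrogenase subunit that favours lactate, was at 0.82 (edgeR quasi-likelihood adjusted p = 1.18e-11). The HIF prolyl hydroxylase genes EGLN1 and EGLN3, themselves known HIF targets, were at 1.16 (adjusted p = 1.66e-08) and 1.49 (adjusted p = 4.11e-06). VHL was the lower one, at -0.79. Dox withdrawal stops the supply of VHL from the transgene in every clone, so a fall in each was built into the design. The VHL means went from 220 to 30.0 CPM in WT8, from 381 to 30.0 CPM in MUT10 and from 229 to 18.2 CPM in MUT35. The source of the difference between clones was not tested. LDHA rose in MUT10, with means of 2124 ± 32.4 CPM with dox and 3422 ± 148 CPM after withdrawal (SD, n = 4), and in MUT35, with means of 2158 ± 34.0 and 2923 ± 145 CPM, so the NDRG3 transcript, with an interaction near 0, did not move as these genes did.

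Of 9 genes of adhesion, trafficking and other processes tied to NDRG1, 8 were tested, and 1 was called in the interaction, higher (1 higher and 3 lower with the GC trend removed), against 23.5% of all genes called (33.4% with the GC trend removed), with a median of -0.086 against 0.0065 over all genes. It was ATF3 (0.47, edgeR quasi-likelihood adjusted p = 0.000139), a stress-responsive factor that NDRG1 is reported to repress. ATF3 was higher after withdrawal in MUT35 (log2 fold change 0.91, adjusted p = 1.1e-11 from the same test) whereas in MUT10 it did not pass (-0.059, adjusted p = 0.434). With dox and after withdrawal, its means were 18.3 and 17.6 CPM in WT8, 26.5 and 25.4 CPM in MUT10, and 22.9 and 43.1 CPM in MUT35. Whether NDRG1 acts on ATF3 in these cells was not tested. With the GC trend removed, ATF3 was called lower in MUT10, at -0.16 (adjusted p = 0.0231), or -0.18 (adjusted p = 0.012) with the GC content of the reference transcript. The other members tested did not pass in the interaction, and the E-cadherin gene CDH1, whose recycling NDRG1 is known to affect, had at most 15.6 counts in any library and was not tested.

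**Figure D4:**
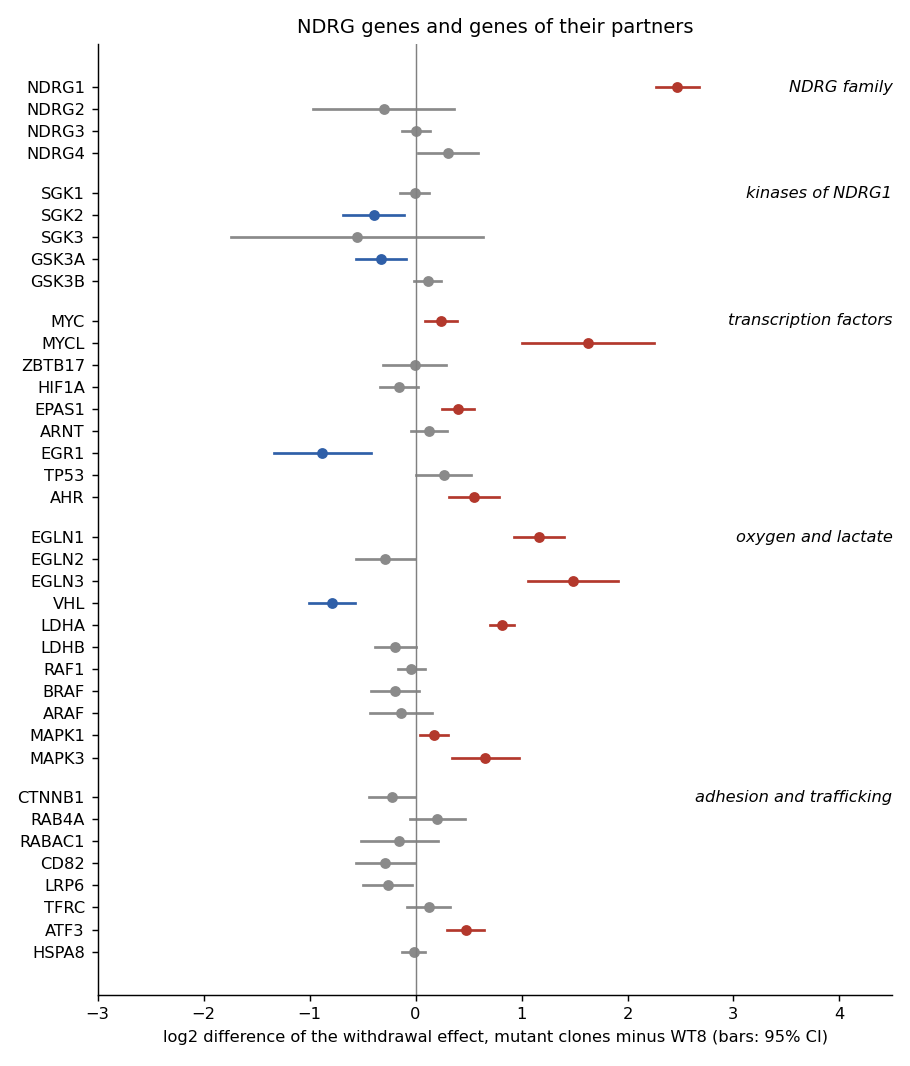
Difference of the withdrawal effect, mutant clones minus WT8, on the log2 scale (horizontal axis) for the NDRG genes and the tested genes of the 4 related lists, with 95% confidence intervals. Red and blue mark an adjusted p under 0.05 for a higher and a lower effect and grey marks the rest, and NDRG1 at 2.47 has the largest value plotted, followed by MYCL at 1.63 and EGLN3 at 1.49.

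Genes with the most similar pattern were found by Pearson's r of log2 CPM over the 24 libraries, among the 10732 genes whose mean count reached 50. The libraries share clones, dox states and the GC trend, so r is a description and carries no p. For NDRG1 these were ENO2 (r = 0.996), IDS (0.987), BHLHE40 (0.986), EFNA1 (0.985) and PFKFB4 (0.981). ENO2, a glycolytic enolase, had its group means in the same order as NDRG1, with means of 43.8 and 54.1 CPM in the dox on and dox off libraries of WT8, 70.5 and 545 CPM in those of MUT10, and 68.7 and 279 CPM in those of MUT35. PFKFB4, a regulator of glycolysis, was at 8.11 ± 1.67 CPM (SD, n = 4) and 70.1 ± 8.33 CPM in MUT10 with dox and after withdrawal, and at 43.5 ± 3.32 CPM in MUT35 after withdrawal. Of the NDRG1 genes, 1 stayed among the closest 5 by Spearman's rho, and 2 stayed when r was taken over the 6 group means, ENO2 in both cases.

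The other members had their own neighbours in pattern. For NDRG2 they were THBS1 (r = 0.915), KCNH1 (0.909), EMILIN2 (0.906), RBMS3 (0.902) and RBMS1 (0.901), each of them lowest in MUT10. EMILIN2, an extracellular matrix protein gene, was at 1.44 ± 0.348 and 1.78 ± 0.462 CPM (SD, n = 4) in MUT10 with dox and after withdrawal, and at 12.1 ± 0.952 and 10.2 ± 0.85 CPM in MUT35. For NDRG3 they were RHOB (0.966), DNPEP (0.951), WIPF1 (0.951), SNX17 (0.950) and MT1X (0.947), and for NDRG4 they were GALNT18 (0.918), SHANK2 (0.917), AGAP1 (0.915), OLFML2A (0.914) and DNASE2 (0.909). RHOB, a small GTPase, was lowest in MUT10 with dox (4.60 ± 0.862 CPM, SD, n = 4) and highest in MUT35 after withdrawal (23.0 ± 1.94 CPM), as were the lowest and highest means of NDRG3. No gene appeared in the lists of 2 members. Of the 5 genes nearest to NDRG2, 0 stayed among the closest 5 by Spearman's rho and 0 when r was taken over the group means, so that list depends on the measure. Of those nearest to NDRG3, 2 and 1 stayed, and of those nearest to NDRG4, 1 and 1 stayed.

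**Figure D5:**
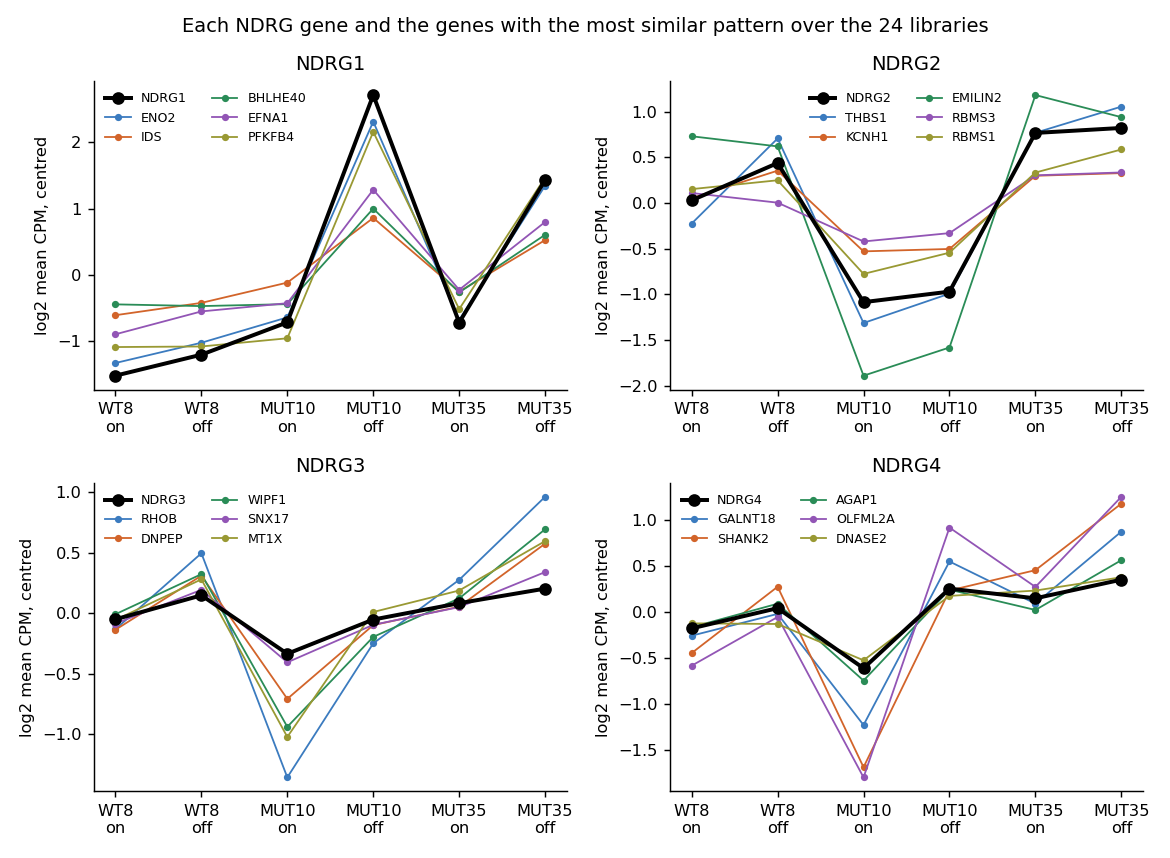
Log2 of the mean CPM in each of the 6 groups, centred on the mean of the 6 (vertical axis), for each NDRG gene (thick black line) and the 5 genes with the highest Pearson's r over the 24 libraries (thin lines). NDRG1 and its nearest genes peak in MUT10 after withdrawal, whereas NDRG2 and its nearest genes are lowest in MUT10 in both dox states.

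Of the coding genes near NDRG2, NDRG3 and NDRG4 in the genome, 7 were tested. None of the 7, among them DSN1 and SOGA1 near NDRG3 and SETD6 and CNOT1 near NDRG4, was called in the interaction, in edgeR's quasi-likelihood test, with 23.5% of all genes called. SETD6, which lies 1851 bases from NDRG4 on the same strand, had an uncorrected log2 fold change of -0.39 in the mutant clones (SE 0.060, adjusted p = 2.23e-06 from the same test). The uncorrected value of NDRG4 was 0.52, which turns to -0.052 with the GC trend removed, or to 0.19 with the GC content of the reference transcript. No value of SETD6 with the GC trend removed is given here, so only the uncorrected values can be set side by side.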

How the data were processed

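The values are RSEM expected counts per gene symbol, deposited by the authors and not scaled to library size. According to the submitters' notes and the paper, reads were mapped to hg38 with Bowtie2 and RSEM. The labels name a KAPA stranded mRNA kit and the paper a Lexogen kit, and which applies is not known here. All 24 libraries were used. Counts were rounded, scaled by TMM and fitted with edgeR 4.0.16 (R 4.3.3) in a single quasi-likelihood model with a mean per clone and dox state. The 13900 genes that passed the filter were adjusted together by the Benjamini-Hochberg method, and an adjusted p under 0.05 was called. The biological coefficient of variation shared by all genes was 8.37%. Log2 CPM used a prior count of 2, and CPM per kb used the MANE Select transcript length of GENCODE v44.

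The members and related lists were chosen with earlier results of these data known. Text names all members, VHL, up to 4 genes of each list by smallest adjusted p in the interaction with genes needed for their role, the 5 genes most similar to each member, and genes beside the members. MYC, HIF1A, SGK1 and CDH1 are named for their role.

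Alternatives were DESeq2 1.42.0, limma-voom (limma 3.58.1), library size alone, RLE factors, no filter, a stricter filter of 10 counts per library, a replicate block, separate fits per clone, thinning to the smallest library, leaving out each library or the pair of MUT10 libraries, and offsets that remove each library's loess trend with GC content (span 0.5), which was known for 13479 of the tested genes (97.0%). GC content of the reference transcript was an alternative chosen after seeing the data. No pairing by replicate number was seen: the deviations from the group mean correlated above 0.1 in 2 of 12 same-numbered pairs (-0.15 to 0.29). MUT10 pairs with different numbers reached -0.42 and 0.35, so these correlations cannot exclude paired cultures. The model was also run on simulated data, for the WT8 comparison alone, with a single spread for all genes and no GC trend. That run therefore does not speak to the GC trend of these libraries. Figures used matplotlib 3.10.9 under Python 3.11.15.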

Additional observations from a re-analysis of the deposited data

Results flagged for a closer look

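NDRG1 had a larger withdrawal effect in the mutant clones than in WT8, by 2.47 on the log2 scale (edgeR's quasi-likelihood test, adjusted p = 5.88e-16), and over the alternatives that kept all libraries or left out the pair of MUT10 libraries the value ran from 2.43 to 2.52. The effect on NDRG1 also differed between the mutant clones, being larger in MUT10 than in MUT35 by 1.28 (adjusted p = 1.6e-09), with 1.23 to 1.41 over the alternatives. The effect on NDRG4 was larger in MUT10 than in MUT35 by 0.64 (adjusted p = 0.00604), with 0.60 to 0.78 over the alternatives, and the same test gave each of these values. No library of the 4 members stood far from the other 3 of its group by Dixon's criterion.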

How the results depend on the processing

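Of 40 results, the 4 members in 10 contrasts, 25 kept their direction and their side of the threshold in every alternative and with each library left out. With the GC trend removed, the withdrawal effect in WT8 turned for NDRG1 to -0.044 and for NDRG4 to -0.31. In MUT10 it turned for NDRG2 to -0.15, in MUT35 for NDRG2 to -0.17 and for NDRG4 to -0.36, and in the mean of the mutant clones for NDRG2 to -0.16 and for NDRG4 to -0.052, with the NDRG3 interaction at -0.019. With the GC content of the reference transcript, chosen after seeing the data, NDRG1 in WT8 was no longer called at 0.038, NDRG4 was -0.10 in WT8 and -0.12 in MUT35, NDRG2 was -0.26 in MUT10, -0.28 in MUT35 and -0.27 in their mean, and the NDRG3 interaction was -0.0075. Genes called in WT8 numbered 5443 with the GC trend removed and 5416 with the reference transcript, and for MUT10 against MUT35 they numbered 2729 and 2780, or 2616 without the pair of MUT10 libraries. GC content moved these values by construction, and no other cause was tested.

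Without the pair of MUT10 libraries, the NDRG4 interaction (0.35) and the NDRG3 difference between MUT10 and MUT35 in withdrawal (0.21) passed the threshold, NDRG3 in MUT35 (0.10) no longer did, and the NDRG1 difference between the mutant clones with dox was -0.054. That difference was also below 0 without a filter (-0.0094), under the stricter filter of 10 counts per library (-0.00024), after thinning (-0.013) and in limma-voom (-0.0018). NDRG3 in MUT35 was not called with library size alone (0.11), without a filter (0.081) or after thinning (0.13). The NDRG3 interaction, near 0, was -0.011 with RLE factors, -0.013 with library size alone, -0.025 without a filter, -0.0092 after thinning and -0.012 in DESeq2. After withdrawal, NDRG2 in the mutant clones against WT8 was not called after thinning (-0.25) or in DESeq2 (-0.55), nor NDRG4 after thinning (0.19), and the NDRG2 difference between MUT10 and MUT35 in withdrawal was -0.11 after thinning. That stricter filter left NDRG2 out. The cause of these changes was not tested.

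With 1 library left out at a time, NDRG3 in MUT35 ran from 0.10 to 0.14, NDRG4 in MUT35 from 0.14 to 0.28, the NDRG4 interaction from 0.27 to 0.35 and the NDRG3 interaction from -0.033 to 0.024. NDRG2 ran from -0.045 to 0.30 in MUT10, from -0.12 to 0.18 in MUT35, from -0.0052 to 0.18 in their mean and from -0.12 to 0.24 for MUT10 against MUT35 in withdrawal. Against WT8 after withdrawal, NDRG2 ran from -0.68 to -0.40 and NDRG4 from 0.23 to 0.30, and NDRG1 between the mutant clones with dox ran from -0.055 to 0.038.

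No pairing of the libraries by replicate number was seen. With a replicate block, NDRG1 was at 3.42 in MUT10, 2.15 in MUT35 and 0.32 in WT8, its interaction was 2.47, 8279 genes were called in WT8, and no call of the 40 changed.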
